A study of Homo sapiens with 6 samples.

Results

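The receptors of the TGF-β and BMP family were followed in HK-2, an established line derived from human proximal tubular epithelium and made immortal in culture, with and without TGF-β1. The genes were 10 receptors chosen by name, each taken from its row on a primary chromosome, out of 14860 genes tested and 41497 named entries. All 10 passed the filter on low counts and none had a second entry under its name. The libraries were 3 of untreated cells (control) and 3 of cells treated with TGF-β1 for 24 hours. All were of wild-type cells of this single line, and the labels give no dose and no batch. The methods give a dose for TGF-β treatment experiments in general but do not repeat it for the sequenced cells. They describe culture in medium with serum and TGF-β treatment in serum-free medium. The labels describe maintenance in medium with serum. The medium of the control cells at harvest is not stated. Nothing states that the replicates came from separate cultures, so p-values measure the spread between these libraries, which may be technical. Poly(A) RNA was sequenced, and the values used here are reads counted per gene.

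Total counts ranged from 21938622 to 26906067 per library, of which 10726 to 18966 were reads of the 10 receptors. Values in CPM (counts-per-million) are relative to library sizes scaled by TMM, a scaling that takes most genes as unchanged. Beside the label of proximal tubular cells, the levels of renal epithelial markers were mixed. LRP2 had 0 reads in all libraries and CUBN, SLC34A1 and ANPEP had under 1 CPM. GGT1 had 75.7 CPM in control and 50.6 CPM after TGF-β1. PAX8, KRT8 and KRT18 were above 100 CPM in both group means. Summed over 11 renal epithelial markers the level was 1198 to 1237 CPM in control and 1755 to 1939 CPM after TGF-β1. The members of this list went both ways. The 5 called higher were CDH6 (199 to 561 CPM), KRT8, KRT18, AQP1 and CUBN, and the 3 called lower were PAX8 (251 to 151 CPM), PAX2 and GGT1. Over 7 fibroblast and pericyte markers it was 65.7 to 75.8 CPM and 61.5 to 63.1 CPM, mostly from LUM. Within that list PDGFRB rose from 0.551 to 5.79 CPM, while LUM, THY1 and RGS5 were called lower. Over 5 leukocyte markers the sums were 2.13 to 3.498 CPM and 0.669 to 0.994 CPM, mostly from CD14. It was the only one of them to pass the filter and was called lower (2.55 to 0.764 CPM).

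Most ligands of this family bring together a pair of type I and a pair of type II receptors, which are serine/threonine kinases of the cell membrane. The type II receptor phosphorylates the type I receptor, and the type I receptor then phosphorylates SMAD proteins. TGFBR1, ACVR1B and ACVR1C act on SMAD2 and SMAD3, and ACVR1, BMPR1A, BMPR1B and ACVRL1 act on SMAD1, SMAD5 and SMAD9, here called the BMP type. Co-receptors such as betaglycan (TGFBR3) and endoglin (ENG) bind or present ligand without a kinase domain. BAMBI is a pseudoreceptor, a membrane protein that resembles a type I receptor but lacks the kinase and inhibits signaling. In the kidney, TGF-β acts through these receptors on tubular cells and fibroblasts and drives fibrosis.

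After TGF-β1, transcripts of 5 of the 10 receptors rose, those of 2 fell and those of 3 did not pass the test. The rises were those of BMPR2, TGFBR1, ACVR1, BAMBI and ACVR2A, and the falls were those of TGFBR3 and ACVR1B. TGFBR2, the type II receptor that binds TGF-β, BMPR1A and the co-receptor ENG were not called. A gene was called at an adjusted p under 0.05 in the edgeR quasi-likelihood test. By this rule 7 of 10 receptors were called, against 44.3% of all genes tested. In the direction of a rise this was 5 of 10 against 22.2% of all genes, and in the direction of a fall 2 of 10 against 22.1%. The libraries of both groups did not overlap for 9 of the 10, against 55.6% of all genes. In 7 of the 10 all TGF-β1 libraries lay above all control libraries, against 27.9%, and in 2 of the 10 all lay below, against 27.7%. The median log2 fold change of the 10 was 0.55, beside 0.01 over all genes tested.

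**Figure D1:**
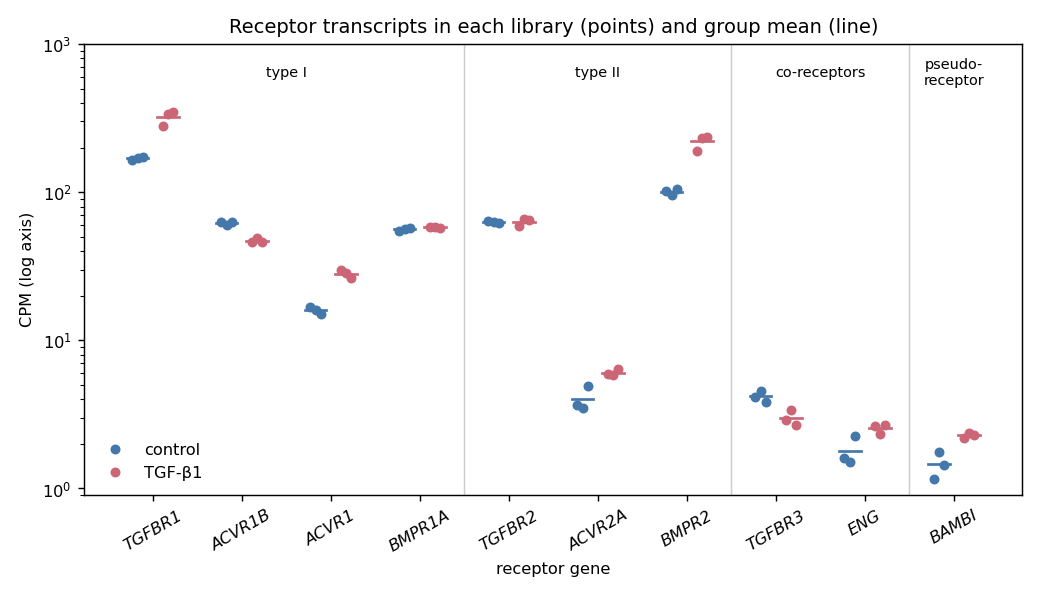
CPM (log axis) of each of the 10 receptors in the 3 control and 3 TGF-β1 libraries, with points for libraries and lines for group means. BMPR2 and TGFBR1 lie clear of their controls, TGFBR2 overlaps them, and the co-receptors and BAMBI lie under 5 CPM in every library.

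Levels of different genes were compared in TPM, transcripts-per-million, which divides by gene length. In control cells TGFBR1 was the most abundant of the 10, at 56.1 ± 2.18 TPM (SD, n = 3). ACVR1B followed at 37.8 ± 1.30, TGFBR2 at 31.4 ± 0.168, BMPR1A at 28.0 ± 1.09 and BMPR2 at 27.7 ± 1.72 TPM, and the ranges of the last pair overlapped. ACVR1 had 9.56 ± 0.354 TPM. The remaining 4 were low, namely BAMBI at 2.86 ± 0.613, ACVR2A at 2.48 ± 0.541, TGFBR3 at 2.08 ± 0.158 and ENG at 1.76 ± 0.433 TPM, and each of these overlapped its neighbor in the order. After TGF-β1 the order in TPM changed at the top. In mean CPM, which is not divided by length, BMPR2 came next after TGFBR1 in both groups. TGFBR1 stood at 98.7 ± 13.6 TPM and BMPR2 came next at 55.8 ± 7.79 TPM. TGFBR2 at 29.1 ± 2.39, BMPR1A at 26.6 ± 0.666 and ACVR1B at 26.6 ± 1.40 TPM followed, and TGFBR2 overlapped BMPR1A, which overlapped ACVR1B. At the low end ENG, at 2.30 ± 0.152 TPM, lay above TGFBR3, at 1.37 ± 0.192, with no overlap.

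Among type I receptors, TGFBR1 and ACVR1 rose and ACVR1B fell. TGFBR1 (gene-TGFBR1, GRCh38 chromosome 9, 99104038 to 99154192, plus strand) encodes ALK5, the type I receptor for TGF-β. It had 165, 171 and 172 CPM in the control libraries and 281, 338 and 350 CPM in the TGF-β1 libraries. Every TGF-β1 library was higher than every control library, and TGF-β1 replicate 1 was the lowest of its group. The fold was 1.91 and the log2 fold change 0.93 ± 0.08 (SE, n = 3 per group, edgeR adjusted p 3.8e-06), which lay above that of 95.2% of the genes tested. ACVR1 (gene-ACVR1, chromosome 2, 157736446 to 157876330, minus strand) encodes ALK2, a BMP-type receptor. It had 16.8, 16.0 and 15.0 CPM in control and 29.8, 28.4 and 26.5 CPM after TGF-β1, and the groups were well apart. Its log2 fold change was 0.83 ± 0.07 (edgeR adjusted p 5.1e-06).

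ACVR1B (gene-ACVR1B, chromosome 12, 51951696 to 51997078, plus strand) encodes ALK4, the type I receptor for activins. It had 62.9, 59.7 and 62.6 CPM in control and 46.4, 48.7 and 45.9 CPM after TGF-β1. All TGF-β1 libraries were lower, and the log2 fold change was -0.39 ± 0.06 (edgeR adjusted p 2.2e-04). BMPR1A (gene-BMPR1A, chromosome 10, 86755786 to 86927969, plus strand) encodes ALK3, a receptor for BMP2 and BMP4. It had 54.9, 56.8 and 57.2 CPM in control and 58.5, 58.3 and 57.6 CPM after TGF-β1. These groups did not overlap but lay less than 1 CPM apart at their nearest, between 57.2 and 57.6. The log2 fold change was 0.05 with a 95% interval from -0.070 to 0.16, it was not called (edgeR adjusted p 0.51), and with scaling by total counts alone it was -0.06.

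Of the type II receptors, BMPR2 rose the most of all 10 genes. BMPR2 (gene-BMPR2, chromosome 2, 202376310 to 202567751, plus strand) encodes the type II receptor for BMPs. It had 101, 95.7 and 106 CPM in control and 191, 232 and 236 CPM after TGF-β1, again with replicate 1 lowest among the treated libraries. The fold was 2.18, a log2 fold change of 1.12 ± 0.08 (edgeR adjusted p 1.8e-06), above that of 96.3% of the genes tested. BMPR2 was the only one of the 10 that was called with a change of at least 2-fold, against 9.06% of all genes by the same rule.

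TGFBR2 (gene-TGFBR2, chromosome 3, 30606472 to 30694142, plus strand) binds TGF-β first and recruits TGFBR1. It had 64.1, 62.7 and 62.1 CPM in control and 59.2, 65.6 and 64.9 CPM after TGF-β1, and the groups overlapped. Its log2 fold change was 0.01 with a 95% interval from -0.12 to 0.14 (edgeR adjusted p 0.95). With scaling by total counts alone it was -0.10, also not called. A gene on the same strand that overlaps its span, LOC105377016, had 29 reads over the control and 43 over the treated libraries. ACVR2A (gene-ACVR2A, chromosome 2, 147844517 to 147930822, plus strand) is a type II receptor for activins. It had 3.64, 3.48 and 4.95 CPM in control and 5.96, 5.80 and 6.40 CPM after TGF-β1. All treated libraries were higher, and the log2 fold change was 0.59 ± 0.15 (edgeR adjusted p 0.0097). Over 427 bases the span of ACVR2A overlaps that of ORC4 on the other strand. The counting is not stated to use strand. ORC4 summed to 3419 reads over the control libraries and 2879 over the treated ones, and its log2 fold change was -0.26, in the other direction.

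The co-receptors and BAMBI were measured at lower depth, and their calls depended on single libraries. TGFBR3 (gene-TGFBR3, chromosome 1, 91680343 to 91906002, minus strand) encodes betaglycan, which presents TGF-β2 to TGFBR2. It had 4.17, 4.54 and 3.84 CPM in control and 2.88, 3.39 and 2.68 CPM after TGF-β1. All treated libraries were lower, at a log2 fold change of -0.49 ± 0.15 (edgeR adjusted p 0.023). The summed reads were 295 and 213, a ratio of 0.715 with a 95% exact binomial interval from 0.597 to 0.856, which covers counting error only. The call was lost with DESeq2 (adjusted p 0.078) and in the fits that left out control replicate 1 (-0.49), replicate 2 of control (-0.42) or TGF-β1 replicate 3 (-0.42).

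ENG (gene-ENG, chromosome 9, 127815012 to 127854773, minus strand) encodes endoglin, a co-receptor best known in endothelial cells. It had 1.60, 1.51 and 2.26 CPM in control and 2.65, 2.32 and 2.68 CPM after TGF-β1. The groups did not overlap, but control replicate 3 came close to the lowest treated library. The log2 fold change of 0.51 ± 0.20 was not called (edgeR adjusted p 0.058). It was called by limma-voom (adjusted p 0.045) and without control replicate 3, at 0.71 (edgeR adjusted p 0.019). Without strand, reads of ENG cannot be told apart from those of the antisense gene LOC102723566. That gene had 28 reads over the control and 29 over the treated libraries, but these were uneven. By replicate, the control counts ran 5, 4, 19 and the treated counts 16, 7, 6. The control peak fell in replicate 3, where ENG was also highest of its group. The treated peak fell in replicate 1, whereas ENG in CPM was highest in replicate 3. The part of LOC102723566 in the value of ENG was not tested. Summed over 7 endothelial markers the level was 2.05 to 2.62 CPM in control and 2.77 to 3.498 CPM after TGF-β1. The members of this list went both ways. ESAM, with the highest mean at 1.90 CPM, was called higher, from 0.904 to 2.90 CPM. CDH5 was called lower, from 0.889 CPM in control to no read after TGF-β1. PECAM1, TEK, VWF and CLDN5 had lower means after TGF-β1 but did not pass the count filter. KDR had 1 read over all 6 libraries. The part of cells with these 7 markers in the value of ENG was not tested. In bulk RNA, fewer cells of a type and less RNA per cell cannot be told apart.

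BAMBI (gene-BAMBI, chromosome 10, 28677521 to 28682932, plus strand) had 1.15, 1.76 and 1.45 CPM in control and 2.19, 2.36 and 2.29 CPM after TGF-β1. All treated libraries were higher. The log2 fold change was 0.64 ± 0.20 (edgeR adjusted p 0.021). The summed reads were 103 and 162, a ratio of 1.56 with a 95% exact binomial interval from 1.21 to 2.01. The call was lost with DESeq2 (adjusted p 0.095) and in the fits that left out control replicate 1 (0.51) or 3 (0.64), or TGF-β1 replicate 2 (0.62) or 3 (0.64).

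**Figure D2:**
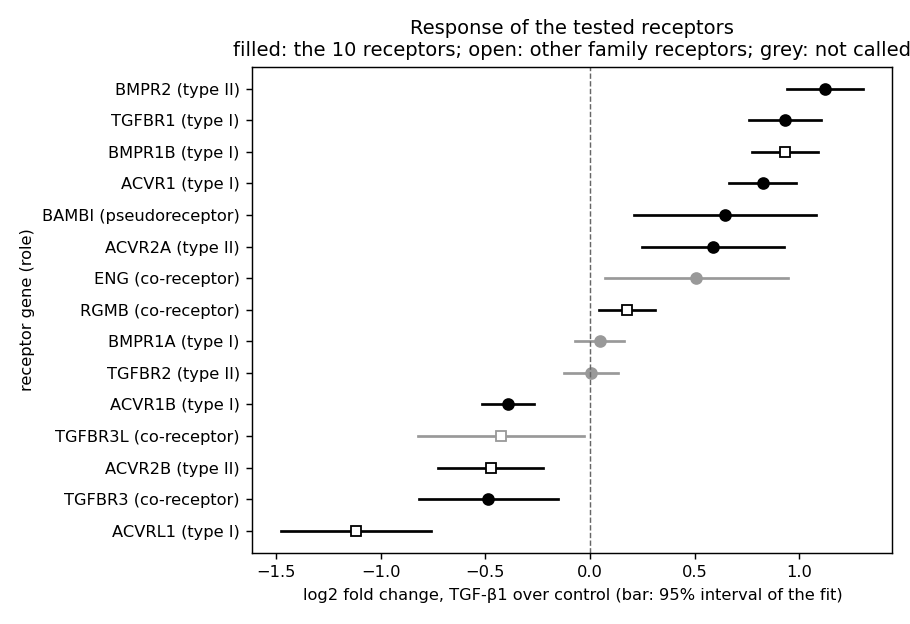
Log2 fold change of TGF-β1 over control for the 15 tested receptors, with the 95% interval of the edgeR fit, ordered by value. Filled circles are the 10 receptors, open squares other family receptors and grey marks those not called, and the values run from -1.12 for ACVRL1 to 1.12 for BMPR2.

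The other receptors of the family were taken as a fixed list of 11 genes, of which 5 passed the count filter, 2 were called higher (22.2% of all genes) and 2 lower (22.1% of all genes). BMPR1B, a BMP-type type I receptor, had 11.2, 11.5 and 11.1 CPM in control and 20.5, 21.8 and 22.4 CPM after TGF-β1, a log2 fold change of 0.93 ± 0.07 (edgeR adjusted p 1.7e-06). ACVRL1, which encodes ALK1 and is best known in endothelial cells, had 4.30, 4.21 and 4.69 CPM in control and 2.38, 1.86 and 1.82 CPM after TGF-β1. All treated libraries were lower, and the log2 fold change was -1.12 ± 0.16 (edgeR adjusted p 2.3e-04). ACVR2B, the second type II receptor for activins, fell by 0.47 ± 0.11 on the log2 scale (edgeR adjusted p 0.0059), while ACVR2A rose. RGMB, a BMP co-receptor, was called at 0.18 ± 0.06 (edgeR adjusted p 0.034). Its call was lost with DESeq2 (0.17), with scaling by total counts (0.07), at a mean of at least 50 counts (0.16) and in all fits without 1 library except that without TGF-β1 replicate 1. TGFBR3L, a paralog of betaglycan, had a log2 fold change of -0.43 ± 0.18 and was not called (edgeR adjusted p 0.076). It was called with scaling by total counts (-0.53) and without TGF-β1 replicate 1 (-0.59).

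Of the 6 receptors under the filter, ACVR1C had 15 reads over the control and 13 over the TGF-β1 libraries. RGMA had 8 and 5 reads, AMHR2 had 2 and 1, and TDGF1 had 1 and 0. HJV and CFC1 had 0 reads in either group, which allows a level of up to 0.0426 CPM in control and 0.0422 CPM after TGF-β1 at a floor of 3 counts per group.

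Shares of the receptor TPM within each library do not depend on the scaling between libraries. TGFBR1 made up 39.2%, 40.3% and 40.2% of the TPM of all 7 type I receptors in the control libraries and 51.5%, 55.9% and 57.6% in the TGF-β1 libraries. The share of ACVR1B went from 26.9% ± 0.738 to 14.9% ± 0.890 (SD, n = 3), and that of BMPR1A from 19.9% ± 0.328 to 14.9% ± 1.01, with no overlap in either case. ACVR1 went from 6.81% ± 0.436 to 8.77% ± 1.01 and BMPR1B from 4.05% ± 0.111 to 5.60% ± 0.112. The 4 BMP-type receptors together held 33.1%, 33.5% and 32.8% in the controls and 32.7%, 29.2% and 28.4% after TGF-β1. The groups did not overlap, but TGF-β1 replicate 1 lay next to the lowest control library. The summed TPM of these 4 receptors was itself higher after TGF-β1, at 45.4, 46.7 and 47.4 in the controls and 52.7, 54.9 and 53.2 in the treated libraries, with no overlap. The summed TPM of type I receptors was 141 ± 3.87 in control and 179 ± 15.4 after TGF-β1.

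Among type II receptors, TGFBR2 was the largest part of TPM in control and BMPR2 after TGF-β1. The order in control rests on division by gene length, which is 12087 bases for BMPR2 and 6673 for TGFBR2. In CPM, BMPR2 was above TGFBR2 in every control library already, at 101, 95.7 and 106 against 64.1, 62.7 and 62.1. The share of TGFBR2 in the TPM of all 5 type II receptors was 49.4%, 49.7% and 46.8% in the controls and 33.8%, 31.9% and 31.3% after TGF-β1. That of BMPR2 was 42.9%, 41.9% and 44.04% in the controls and 60.03%, 62.2% and 62.9% after TGF-β1. The share of ACVR2A was 3.82% ± 0.681 in control and 3.83% ± 0.359 after TGF-β1, while that of ACVR2B went from 4.49% ± 0.359 to 2.12% ± 0.195. For the receptor pair of TGF-β itself, the TPM ratio of TGFBR1 to TGFBR2 was 1.71, 1.80 and 1.84 in the controls and 3.15, 3.42 and 3.58 after TGF-β1. The log2 ratio differed by 0.92 and was higher in 3 of 3 TGF-β1 libraries, with a two-sided exact permutation p of 0.1, the smallest that 3 libraries against 3 can give.

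**Figure D3:**
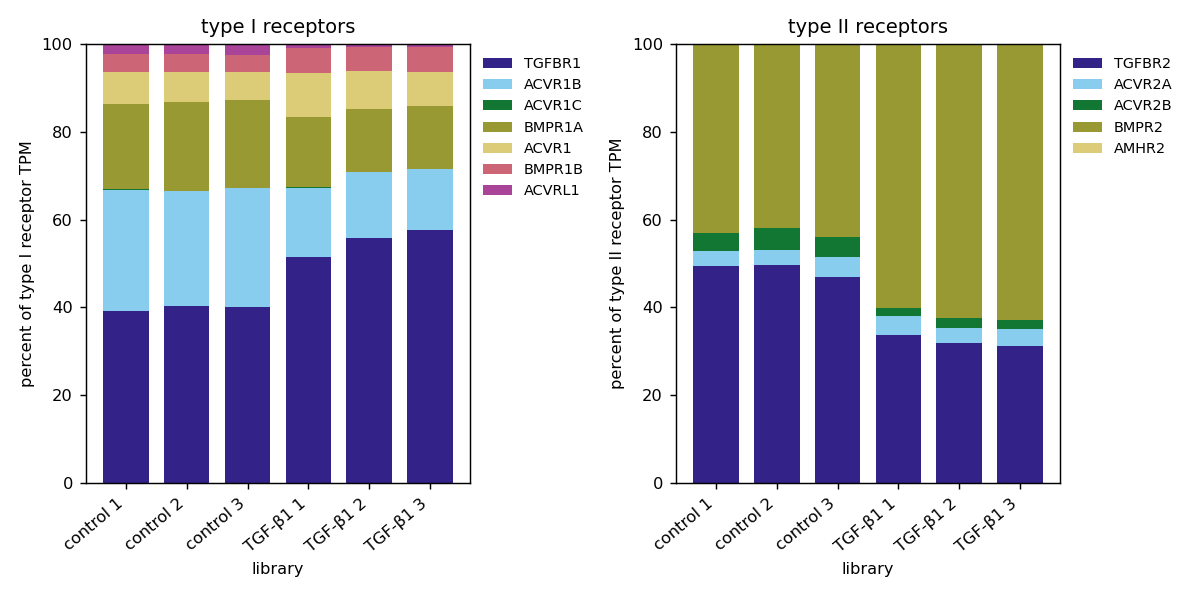
Share of each receptor in the summed TPM of the 7 type I receptors (left) and the 5 type II receptors (right), as stacked percentages with 1 bar per library. TGFBR1 takes 51.5% to 57.6% of type I TPM after TGF-β1, and BMPR2 takes more than TGFBR2 in the 3 TGF-β1 libraries and less in the 3 control libraries. The order in control rests on division by gene length, since BMPR2 had more reads than TGFBR2 in every library.

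The start regions of the receptor genes were searched for letters known to be bound by SMAD proteins and by AP-1. RefSeq (GRCh38.p14) gave 21 start regions of 300 bases for the 10 genes, of which TGFBR1 has 8, ACVR1 has 3, and ACVR1B and TGFBR2 have 2 each. Some regions of TGFBR1 overlap, as do those of TGFBR2, so the same site can be counted in more than 1 region. The SMAD core CAGAC, on either strand, was in 10 of the 21 regions, against 45.3% of all 35116 regions of this length. The GC-rich site GGCGCC was in 5 of 21 against 19.2%, and the SMAD palindrome GTCTAGAC, which holds neither of these, was in none against 0.202%. The AP-1 site TGANTCA, on either strand, was in 2 of 21 against 7.71%. The regions of 3 genes with a single start are shown because they stand for the largest rise, for the pseudoreceptor and for a gene that was not called. They cover chr2:202376077-202376376, chr10:28677271-28677570 and chr10:86755513-86755812, each on the plus strand from 250 bases before the start. Capitals mark CAGAC and GGCGCC on either strand.
BMPR2: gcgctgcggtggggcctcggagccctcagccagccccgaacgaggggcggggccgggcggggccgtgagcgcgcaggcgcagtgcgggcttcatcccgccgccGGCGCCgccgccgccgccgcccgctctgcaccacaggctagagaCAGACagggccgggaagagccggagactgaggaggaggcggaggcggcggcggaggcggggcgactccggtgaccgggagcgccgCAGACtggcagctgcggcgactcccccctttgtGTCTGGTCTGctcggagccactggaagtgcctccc
BAMBI: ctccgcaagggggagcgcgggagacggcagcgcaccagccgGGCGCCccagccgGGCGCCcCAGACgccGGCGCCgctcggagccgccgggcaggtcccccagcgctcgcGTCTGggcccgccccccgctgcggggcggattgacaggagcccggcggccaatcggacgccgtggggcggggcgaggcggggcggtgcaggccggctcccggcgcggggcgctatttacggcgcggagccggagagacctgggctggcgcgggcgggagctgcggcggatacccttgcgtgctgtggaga
BMPR1A: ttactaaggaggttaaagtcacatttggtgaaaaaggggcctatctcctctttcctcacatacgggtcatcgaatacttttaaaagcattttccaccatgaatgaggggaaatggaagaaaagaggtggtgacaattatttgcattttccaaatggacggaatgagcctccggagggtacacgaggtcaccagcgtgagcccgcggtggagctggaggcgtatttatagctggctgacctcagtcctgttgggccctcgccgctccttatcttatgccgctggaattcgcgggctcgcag
BMPR2 held the core 4 times and the GC-rich site once, and BAMBI held them 2 and 3 times. Neither was found in the region of BMPR1A, nor in those of TGFBR2, TGFBR3 and ENG. At least 1 region of TGFBR1, ACVR1, ACVR1B and ACVR2A held the core. The GC-rich site was also in 1 region each of ACVR1B, with 4 copies, TGFBR1, with 2, and ACVR1, with 1. ACVR1B was called lower. The printed regions differ in GC content, at 76.7% for BMPR2, 80.0% for BAMBI and 50.3% for BMPR1A. A link of the sites to the changes was not tested. These matches are letters in a window and not measured binding.

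Genes that act on the receptors moved in both directions. Of 21 genes of receptor traffic and turnover, all passed the filter, 9 were called higher and 6 lower, against 22.2% and 22.1% of all genes, and their median log2 fold change was 0.11 beside 0.01 over all genes. The largest rises by the naming rule were PMEPA1, MMP14 and SMURF1. PMEPA1, which limits SMAD activation by TGFBR1, was at 139 ± 4.72 CPM in control and 841 ± 30.6 CPM after TGF-β1 (SD, n = 3), and its log2 fold change was 2.60 (edgeR adjusted p 2.4e-10). MMP14, a membrane protease that can shed betaglycan and endoglin, rose by 1.09, and SMURF1, a ubiquitin ligase for receptors and SMADs, rose by 0.47. SMURF1 has a further entry on another contig, with which it may share reads, and so its level is uncertain. With the entries of a name summed its log2 fold change was 0.47 (edgeR adjusted p 3.0e-05). The falls named by the same rule were CAV1, NEDD4L and DAB2. CAV1, a coat protein of caveolae through which TGF-β receptors are taken up and degraded, went from 304 ± 9.73 to 142 ± 2.78 CPM, with -1.10 on the log2 scale (edgeR adjusted p 3.5e-08). NEDD4L, a ubiquitin ligase, had -0.95, and DAB2, an adaptor of endocytosis, had -0.86. LDLRAD4, a relative of PMEPA1 singled out after its values were seen, had 3 reads over the control and 137 over the treated libraries, and the ratio was 45.2 with a 95% exact binomial interval from 15.2 to 222.

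Downstream of the receptors, 1 of 6 receptor-activated and common SMADs was called, namely SMAD3, which was lower in all TGF-β1 libraries. Of all genes, 44.3% were called in either direction. The other 5, SMAD1, SMAD2, SMAD4, SMAD5 and SMAD9, had log2 fold changes from -0.05 to 0.12 and were not called. SMAD5 was called without TGF-β1 replicate 1, at 0.20, and SMAD4 with scaling by total counts, at -0.16. Both inhibitory SMADs were higher, SMAD7 with 18.01 ± 2.31 CPM in control and 56.2 ± 2.14 CPM after TGF-β1 (log2 fold change 1.64, edgeR adjusted p 1.0e-07), and SMAD6 with 0.39 ± 0.10 (SE) on the log2 scale. Of 14 ligands, 8 passed the filter, 4 were called higher and 3 lower, against 22.2% and 22.1% of all genes. TGFB1 had a log2 fold change of 1.79, INHBA, a subunit of activin A, had 1.35 and TGFB3 had 0.99. The fourth rise, GDF11, which is outside the naming rule and was named after its values were seen, had 0.19 and lost its call with scaling by total counts (0.08) and without control replicate 2 (0.17) or TGF-β1 replicate 3 (0.18). GDF15 had -2.56 and TGFB2 had -0.40. Whether GDF15 acts through the receptors studied here was not tested. TGFB2 and INHBA have antisense genes, and where these overlap them, reads cannot be told apart without strand. INHBA, whose product acts through ACVR1B, went from 596 ± 11.2 to 1525 ± 71.6 CPM.

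**Figure D4:**
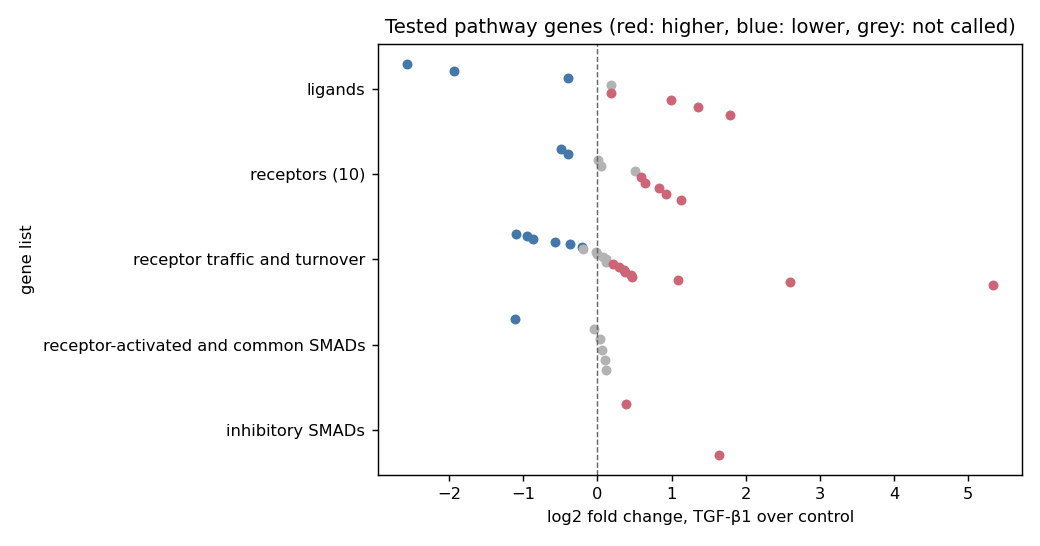
Log2 fold change of TGF-β1 over control for the tested ligands, the 10 receptors, genes of receptor traffic and turnover, and SMADs, with a point per gene, in red where called higher, blue where called lower and grey where not called. The SMADs that receptors activate lie near 0 apart from SMAD3, and the point farthest to the right is LDLRAD4, whose fold is uncertain because it had 3 reads in control.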

How the data were processed

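Poly(A) RNA of HK-2 cells was sequenced by the authors in 3 control and 3 TGF-β1 libraries. Adapter and low-quality reads were removed. The submitters' processing notes list hg38, CASAVA, featureCounts 2.0.1 and DESeq2 1.16.1. The aligner and annotation release are not given in the sources used here. The deposited tables hold raw counts per gene, and per the file headers also TPM and FPKM values made by the authors. FPKM was not used.

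In each table, 7 records that line breaks had split were put together again. The 598 unnamed loci, with 0.396% to 0.464% of counts, were left out of library sizes and tests, and 0 of them lay within 100 kb of a receptor gene. Each named entry was tested as listed. Genes were kept with filterByExpr (minimum count 10), scaled with TMM and tested two-sided with the quasi-likelihood F test of edgeR 4.0.16 with robust dispersion, with Benjamini-Hochberg adjustment over all 14860 genes tested. The SE is the log2 fold change divided by the square root of F, and intervals use the t distribution of the fit. CPM uses TMM-scaled library sizes, whereas TPM is as deposited. Python 3.11.15 with scipy 1.17.1, and R 4.3.3 with limma 3.58.1 and DESeq2 1.42.0, were also used. The test was checked on simulated data.

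Counting error of a receptor in a library was at most 19.6% (BAMBI) and limits the precision of the low receptors. The receptors and lists were chosen with earlier results of these data known. All receptors were named. Of the other lists, the text names at most 3 rises and 3 falls each, which are the largest called changes where groups did not overlap and the mean reached 5 CPM. LDLRAD4, GDF11 and BMP4 were named beside these, after their values were seen. The alternatives were DESeq2, limma-voom, RLE and total-count scaling, 2 other filters (all genes with a count, a mean of at least 50 counts), a replicate block, entries of a name summed, raw counts in place of TPM, and leaving out each library in turn.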

Additional observations from a re-analysis of the deposited data

How the results depend on the processing

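BMPR2, TGFBR1, ACVR1, ACVR2A and ACVR1B kept their direction and their call in all 14 alternatives each, with log2 fold changes from 1.01 to 1.20, 0.82 to 1.01, 0.72 to 0.87, 0.48 to 0.77 and -0.50 to -0.38. BAMBI kept its call in 8 of 13 and TGFBR3 in 10 of 14, and ENG was called in 3 of 14. BAMBI could not be fitted at a mean of at least 50 counts, since it did not pass that filter. With DESeq2, 4 receptors were called higher and 1 lower. Over the fits without 1 library, 4 to 5 were called higher and 1 to 2 lower. The number lower was 1 when control replicate 1, replicate 2 of control or TGF-β1 replicate 3 was left out, and the one lost was TGFBR3. Of the other family receptors, 1 was called higher with DESeq2 and 1 with total counts only, and 1 to 2 over the fits without 1 library. Total counts only moved the median of all genes by -0.11, with 2130 genes called higher and 4592 lower, in place of 3294 and 3288. There BMPR1A was at -0.062 and TGFBR2 at -0.10. TGFBR2 was at -0.017 with a mean of at least 50 counts, and from -0.026 to 0.040 over the fits without 1 library. None of these values of TGFBR2 was called. A replicate block, with the replicate number as a term, left the other calls of receptors as they were and called ENG at 0.52 (adjusted p 0.048). The correlations of same-numbered libraries were 0.111, -0.012 and 0.076, so the numbers were not taken as pairs. The difference in the BMP-type share was -3.03 percentage points, from -4.33 to -2.20 over the fits without 1 library, the former without TGF-β1 replicate 1, and -4.55 in raw counts. That in the share of BMPR2 was 18.8, from 18.2 to 19.6, and that in the log2 ratio of TGFBR1 to TGFBR2 was 0.92, from 0.88 to 0.97. The low depth of ENG, BAMBI, TGFBR3 and ACVR2A limits their precision.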
